A study of Mus musculus with 59 samples.

Results

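Protocadherins are the largest family of cadherin-type adhesion proteins, and most of them are made in the nervous system. The clustered genes lie in 3 neighbouring arrays called alpha, beta and gamma. In each array a neuron switches on a few of many promoters, and the resulting proteins bind like to like, which lets a neurite tell its own branches from those of other neurons. The non-clustered genes lie apart, each with its own regulation, and serve adhesion, axon growth and synapse formation in particular circuits.

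All rows of the expression table with a symbol that starts with Pcdh were taken, which gave 58 of 20689 genes. Of these, 47 are clustered (7 alpha, 21 beta and 19 gamma) and 11 are non-clustered. The genes were taken by symbol, with earlier results of these data known. The table gives FPKM, the fragments mapped per kilobase of exon relative to all fragments of the cell, so that levels of genes of different length can be set side by side. Detected means here an FPKM of at least 1 in the cell in question.

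The cells were 59 single mouse cells, labelled chemical-induced neurons with an age of 12 weeks, from a study of turning astrocytes into neurons inside the brain with chemicals. Each was taken from living tissue by breaking into the cell with a patch pipette and drawing out its content, so RNA of the soma and of anything that clung to the pipette entered the library. All cells form 1 group, no animal, strain or chemical is named in the labels, and no untreated neurons or astrocytes were analysed here. Cells of unnamed animals are not replicates, so values are given as descriptions with no test, and intervals for shares of cells are exact Clopper-Pearson 95% intervals that cover counting error over cells only.

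The label was checked against markers. A list of 14 neuronal markers had a median detection of 73.7% of cells, and 13 of them reached 50% or more. Markers of other cell types were also present: the median was 74.6% of cells for 10 oligodendrocyte markers, 57.6% for 10 microglia markers, 45.8% for 10 astrocyte markers, 16.1% for 6 oligodendrocyte precursor markers and 3.39% for 7 endothelial and mural markers. The summed FPKM of the oligodendrocyte list ran from 14.6 to 29150 with a median of 2550, and no cell had it at 0. That of the neuronal list ran from 0 to 3164 with a median of 865, that of the microglia list from 0 to 35611 with a median of 837, and that of the astrocyte list from 0 to 3887 with a median of 369. A protocadherin signal in a library can therefore come from more than the labelled cell, and its source was not tested. Depth estimated from the spacing of the FPKM values was 29043 to 2950402 fragments per cell (median 912996), and 475 to 10310 genes were detected per cell (median 3984).

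The regulatory sequence of 5 non-clustered genes is shown because they stand at the ends of the range of detection described below. Pcdh9, Pcdh17 and Pcdh10 were found in the most cells, Pcdh20 in 2 cells and Pcdh18 in none. Each sequence is the 250 bases before the transcription start in RefSeq on GRCm38.p6, read 5′ to 3′ along the gene's strand, and capitals mark the CCAAT box or its reverse complement ATTGG, the site that the factor NF-Y recognises. They lie at chr14:93890680-93890929 on the minus strand, chr14:84443313-84443562 on the plus strand, chr3:45378148-45378397 on the plus strand, chr14:88471397-88471646 on the minus strand and chr3:49757317-49757566 on the minus strand.
Pcdh9: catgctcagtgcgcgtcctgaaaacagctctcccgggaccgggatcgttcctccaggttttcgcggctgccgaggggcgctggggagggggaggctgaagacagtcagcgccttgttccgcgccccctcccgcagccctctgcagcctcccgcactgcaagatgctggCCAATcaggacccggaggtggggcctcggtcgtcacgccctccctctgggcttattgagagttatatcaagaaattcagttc
Pcdh17: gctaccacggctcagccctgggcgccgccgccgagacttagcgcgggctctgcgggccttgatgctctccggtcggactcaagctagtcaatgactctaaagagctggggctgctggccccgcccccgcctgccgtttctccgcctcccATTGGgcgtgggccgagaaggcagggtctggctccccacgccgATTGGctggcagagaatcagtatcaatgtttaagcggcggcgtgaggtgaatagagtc
Pcdh10: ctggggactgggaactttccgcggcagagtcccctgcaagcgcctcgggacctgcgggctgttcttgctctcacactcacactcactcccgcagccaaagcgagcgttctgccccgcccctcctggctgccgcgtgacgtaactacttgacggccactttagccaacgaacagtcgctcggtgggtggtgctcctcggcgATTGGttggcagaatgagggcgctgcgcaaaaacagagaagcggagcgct
Pcdh20: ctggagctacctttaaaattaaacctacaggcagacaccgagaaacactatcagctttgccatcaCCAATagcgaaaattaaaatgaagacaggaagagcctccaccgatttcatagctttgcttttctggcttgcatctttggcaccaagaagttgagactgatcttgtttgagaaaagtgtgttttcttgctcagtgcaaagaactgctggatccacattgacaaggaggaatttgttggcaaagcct
Pcdh18: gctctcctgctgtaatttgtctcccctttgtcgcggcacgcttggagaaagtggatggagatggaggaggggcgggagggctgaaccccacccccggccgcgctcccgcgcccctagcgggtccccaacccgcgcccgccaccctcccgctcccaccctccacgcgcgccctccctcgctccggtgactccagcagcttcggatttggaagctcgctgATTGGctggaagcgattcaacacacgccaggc

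A promoter was matched for 9 of the 11 non-clustered genes, and for Pcdh9 the first of 2 listed starts was taken. Of these, 8 held CCAAT on either strand, against 33.8% of all 32851 promoters of the same length, and Pcdh7 held none. Counted as CG on the printed strand, Pcdh18 had 23 CpG sites, Pcdh10 had 22, Pcdh17 had 21 and Pcdh9 had 18, while Pcdh20 had 3, below the median of 6 over all promoters. Pcdh18, with the most CpG sites of the printed sequences, was found in no cell, and Pcdh20, with the fewest, in 2 cells. The printed genes were chosen by their detection, and how CpG sites bear on detection was not tested. A match of letters is a description and shows no binding.

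**Figure D1:**
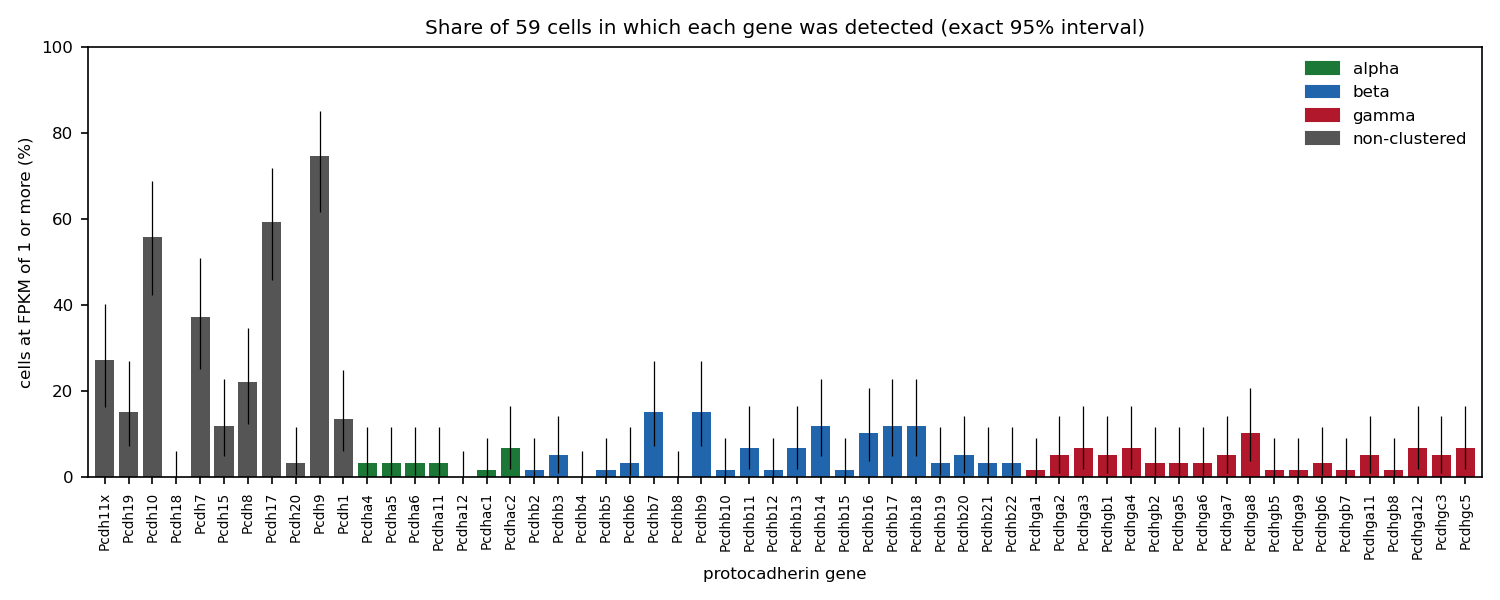
Share of the 59 cells in which each protocadherin gene reached an FPKM of 1 (vertical axis, percent). Bars are genes in the order of the table within each class, coloured by class, and lines are exact Clopper-Pearson 95% intervals. Pcdh9 reached 74.6%, Pcdh17 59.3% and Pcdh10 55.9%, and no clustered gene passed 15.3%.

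Some non-clustered genes were found in many cells and the clustered genes each in few. The classes overlapped: Pcdh18, Pcdh20, Pcdh15, Pcdh1 and Pcdh19 were detected in 0, 2, 7, 8 and 9 cells. The most widely detected clustered genes, Pcdhb7 and Pcdhb9, were found in 9 each. At least 1 cell had 54 of the 58 genes (44 of 47 clustered and 10 of 11 non-clustered), where 97.5% of all genes did so. With 10% of the cells (6 cells) as the minimum, 7 of 47 clustered and 9 of 11 non-clustered genes passed, against 54.4% of all genes. With 50% (30 cells), 0 clustered and 3 of 11 non-clustered genes passed, against 11.7% of all genes.

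The median clustered gene was detected in 3.39% of cells, the median non-clustered gene in 22.0% and the median of all genes was 11.9%. At a threshold of 5 FPKM the first 2 medians were 1.69% and 13.6%, and in the 39 cells with at least 500000 fragments they were 5.13% and 25.6%. A list of 7 measured genes of other organs had the same median as the clustered genes, 3.39%, with Myh7 (a muscle myosin heavy chain) in 11 cells and Krt5 (a keratin) in 1. The 83 odorant and vomeronasal receptor genes in the table, which brain neurons are not known to use widely, had a median of 1.69%. That is 1 cell. Of these receptors 80 were detected in at least 1 cell, as were 97.5% of all genes. Few genes of the table were thus detected in no cell, which keeps such medians from lying much lower. Of 10 genes listed for other organs only 7 were measured. Whether these shares measure background was not tested. Over gene and cell combinations the clustered genes were detected in 4.87%, the receptors in 1.76%, the non-clustered genes in 29.1% and all genes in 20.3%. At least 10 fragments stood behind 84.2% of the clustered detections with a recovered count. The same share was 84.1% for all genes, 89.9% for the non-clustered genes and 60.5% for the receptors.

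Within a cell, where depth is shared, the share of the 11 non-clustered genes detected was higher than the share of the 47 clustered genes in 52 of 59 cells. Both shares were 0 in the other 7 cells, and the clustered share was higher in 0 cells. The difference of the shares, clustered minus non-clustered, had a median of -20.9 percentage points and ran from -71.2 to 0. With any FPKM above 0 counted as detected, its median was -32.1 points, and at a threshold of 5 FPKM it was -13.9 points. Exon length differs between the classes. Its median was 10464 bases for non-clustered, 5393 for alpha, 3718 for beta and 4756 for gamma genes with a known length. How far length bears on the difference was not tested.

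Among the delta-1 genes, a non-clustered subgroup defined by its extracellular repeats and cytoplasmic motifs, Pcdh9 was the most widely detected. It was found in 44 cells (74.6%, interval 61.6 to 85.0%), and over all 59 cells its level was 0 at the lowest, 13.1 FPKM at the median and 340 FPKM at the highest. The top values were 340 FPKM in cell 1, 217 FPKM in cell 12 and 137 FPKM in cell 45. These were not equally well measured, since the value in cell 1 rested on 213 fragments and that in cell 12 on 2631 after rounding.

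Pcdh9 was also the highest non-clustered gene in 31 of the 52 cells that had any, followed by Pcdh17 in 7 and Pcdh10 in 5. Its median of 23.9 FPKM over the cells where it was detected (quartiles 9.55 and 48.1) was above that of Pcdh7, which was 5.81 FPKM over 22 cells (quartiles 2.65 and 11.3), and of Pcdh11x, an X-linked gene, which was 6.01 FPKM over 16 cells (quartiles 3.00 and 16.1). The ranges over cells overlapped, as Pcdh7 reached 45.9 FPKM in cell 42 and Pcdh11x reached 32.0 FPKM in cell 44.

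Pcdh1 and Pcdh20 were the least seen of the delta-1 genes. Pcdh1, also known from airway epithelium, was detected in 8 cells at a median of 2.44 FPKM, with 15.0 FPKM in cell 35 and at most 4.08 FPKM in the others. Pcdh20 was detected in 2 cells, at 26.6 FPKM in cell 14 (155 fragments) and 1.25 FPKM in cell 17 (7 fragments). Cell 14 thus stood alone, and Pcdh20 was its highest non-clustered gene.

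Of the delta-2 genes, Pcdh17 and Pcdh10 were detected in over 50% of the cells. Pcdh17, which takes part in presynaptic assembly in circuits of cortex and basal ganglia, was found in 35 cells (59.3%, interval 45.7 to 71.9%). Its level over the 59 cells was 0 at the lowest, 1.64 FPKM at the median and 88.5 FPKM in cell 37, the highest. Pcdh10, which is needed for axon growth in the forebrain and recruits the actin-regulating WAVE complex, was found in 33 cells (55.9%, interval 42.4 to 68.8%). Its level was 0 at the lowest, 1.26 FPKM at the median and 42.9 FPKM in cell 42, the highest.

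Pcdh8, an activity-regulated gene also called arcadlin, reached 13 cells, where its median was 7.45 FPKM, and its highest value was 73.9 FPKM in cell 1 (31 fragments). Pcdh19, an X-linked gene known from an inherited epilepsy, reached 9 cells, where its median was 2.92 FPKM and its highest value 43.9 FPKM, in cell 44. Cell 44 was also the highest cell for Pcdh11x, the other X-linked non-clustered gene, though the 2 values rest on 70 and 68 fragments. Pcdh18 was above 0 in 2 cells and reached at most 0.913 FPKM, so it was detected in 0 of 59 cells (interval 0 to 6.06%). Pcdh15, a component of the tip link of inner ear hair cells, was detected in 7 cells, at 1.47 to 8.22 FPKM.

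The widely detected genes met in the same cells. Pcdh9 and Pcdh17 were detected together in 31 cells, Pcdh9 and Pcdh10 in 28, and Pcdh17 and Pcdh10 in 25. All of Pcdh9, Pcdh17, Pcdh10 and Pcdh7 were detected in 14 cells, and none of them in 8. Such overlap also follows the number of genes detected per cell, which is given below, and their parts were not told apart.

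**Figure D2:**
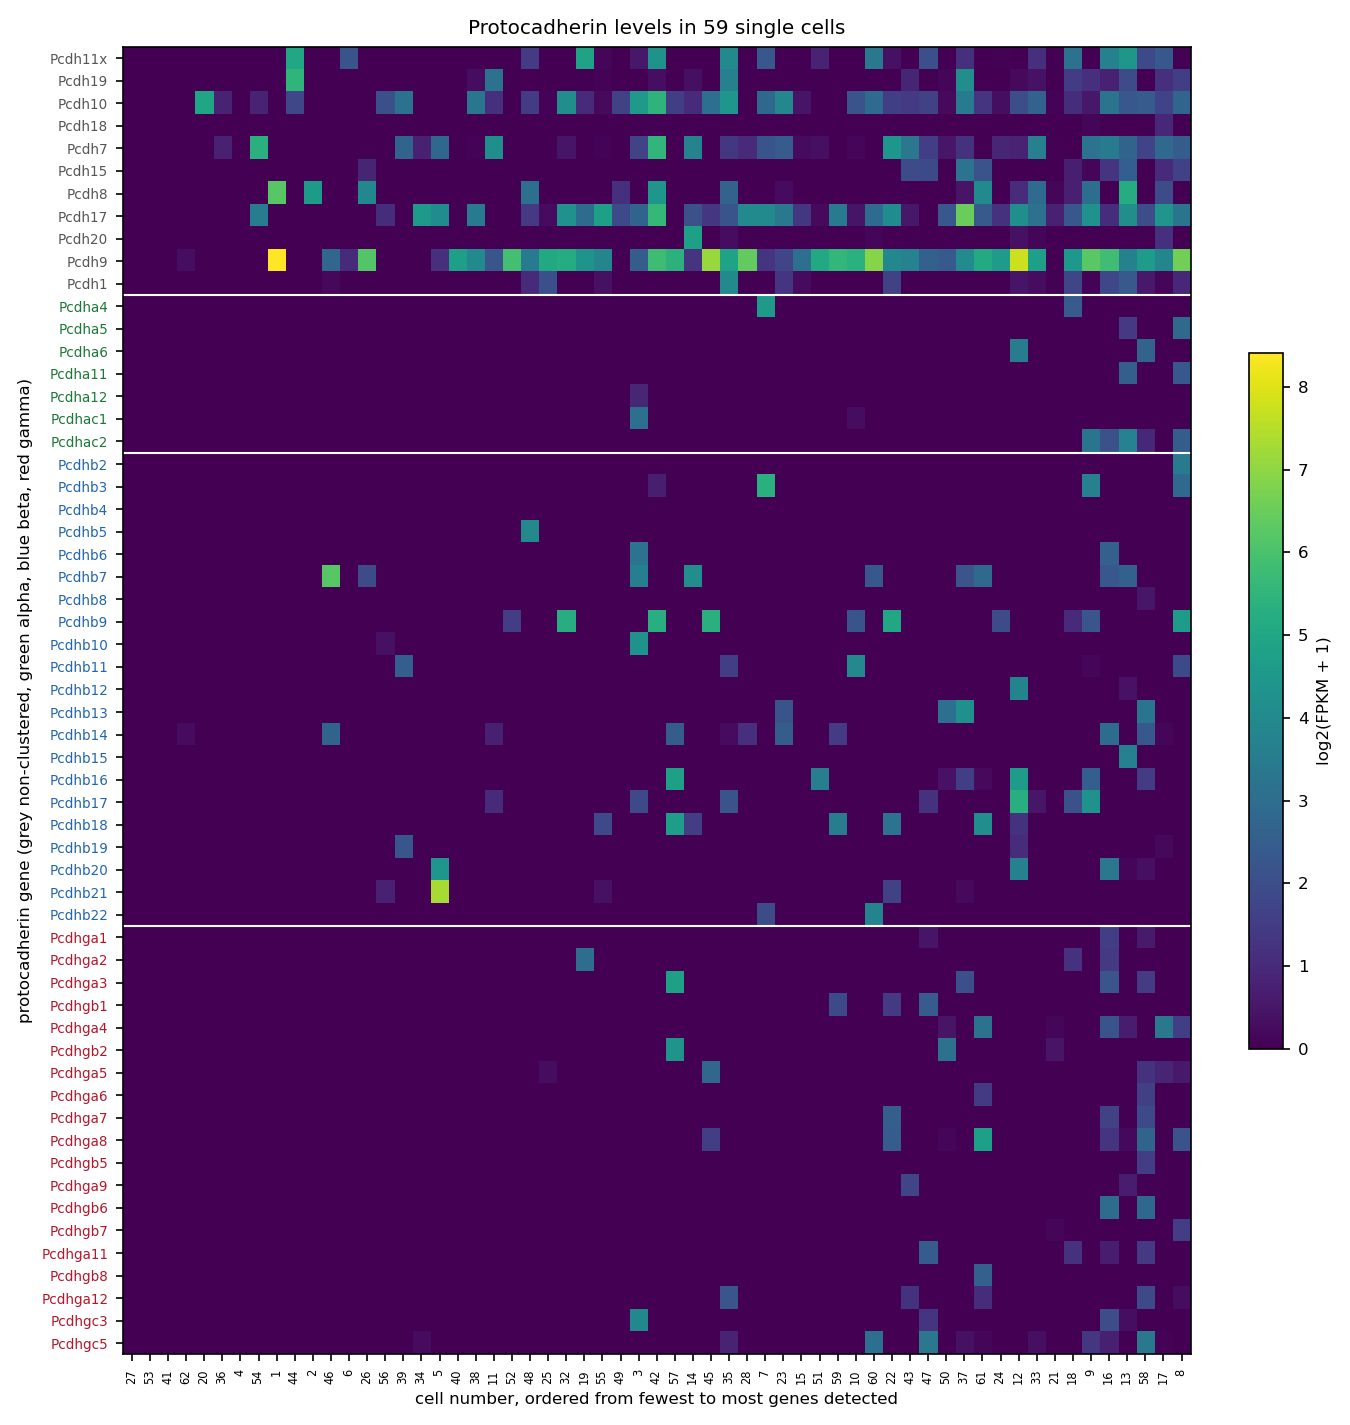
Level of each protocadherin gene (rows) in each of the 59 cells (columns, ordered from fewest to most genes detected), as log2(FPKM + 1). White lines separate the non-clustered, alpha, beta and gamma genes. Pcdh9, Pcdh17 and Pcdh10 run across many columns, clustered genes appear as scattered single cells, and gamma genes crowd into a few columns on the right.

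The clustered genes of the table lie on chromosome 18 of GRCm38 between 36952648 (the start of Pcdha4) and 37841873 (the end of the gamma array), in GENCODE release M21. Alternate genes of the alpha and gamma arrays each have their own first exon, which encodes the extracellular part, joined to exons common to the array, whereas each beta gene here is a single exon. Several clustered symbols of the mouse arrays, among them Pcdha1, Pcdhb1 and Pcdhgc4, were not analysed here. The gap in numbering was widest in the alpha array, where Pcdha6 was followed by Pcdha11. Beta genes ran without a gap from Pcdhb2 to Pcdhb22. In the alpha array 48.6 to 54.9% of a gene's exon length is shared with other protocadherin genes, and in the gamma array 27.8 to 66.8%. Only 2 of 21 beta genes share any, Pcdhb21 and Pcdhb22, at up to 9.67%, and no non-clustered gene does. The genes of an array were not all above 0 together in any cell: at most 11 of 19 gamma and 3 of 7 alpha genes were above 0 at once.

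Beta genes were found in more cells than alpha or gamma genes. At least 1 beta gene was detected in 35 cells (59.3%, interval 45.7 to 71.9%), at least 1 gamma gene in 19 cells (32.2%, 20.6 to 45.6%) and at least 1 alpha gene in 9 cells (15.3%, 7.22 to 27.0%). These shares of cells also depend on how many genes of an array were analysed (7 alpha, 21 beta and 19 gamma). By gene and cell combination the shares were 5.81% for beta, 4.46% for gamma and 3.15% for alpha. Beta genes alone were detected in 16 cells, gamma genes alone in 3 and alpha genes alone in 0. Beta with gamma was found in 10 cells, alpha with beta in 3 and all 3 arrays in 6.

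Pcdhb7 and Pcdhb9 were the most widely detected clustered genes, with 9 cells each (15.3%, interval 7.22 to 27.0%). The 9 values of Pcdhb9 fell apart, with 1.90, 2.91, 3.54 and 3.69 FPKM in cells 52, 24, 10 and 9, and 24.2, 31.9, 36.6, 38.0 and 39.9 FPKM in cells 8, 22, 32, 42 and 45. No cell lay between 3.69 and 24.2 FPKM. In the same order, the lower values rested on 14, 20, 9 and 24 fragments and the higher ones on 160, 89, 54, 48 and 76. The libraries differed in depth, and whether the values form separate sets was not tested. Pcdhb7 was 2.85 to 16.4 FPKM in 8 cells and 73.1 FPKM in cell 46, on 206 fragments.

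Pcdhb14, Pcdhb17 and Pcdhb18 followed with 7 cells each and Pcdhb16 with 6. Pcdhb17 was highest in cell 12 (38.0 FPKM, 316 fragments) and cell 9 (18.8 FPKM, 187 fragments), and at most 3.43 FPKM in the other 5 cells. Pcdhb16 was at 26.7 FPKM in cell 57, 24.3 in cell 12 and 11.1 in cell 51, and at most 4.76 FPKM in the other 3. The single highest clustered value was Pcdhb21 at 158 FPKM in cell 5, on about 93 fragments, where the second detected clustered gene was its neighbour Pcdhb20 at 20.2 FPKM. Some detections were thin: Pcdhb14 at 1.24 FPKM in cell 28 was 1 fragment.

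Of the beta genes Pcdhb4 was at 0 in every cell, and Pcdhb8 was above 0 in 1 cell at 0.415 FPKM. Both therefore have an interval of 0 to 6.06% of cells. Pcdhb2, Pcdhb5, Pcdhb10, Pcdhb12 and Pcdhb15 were each detected in 1 cell, at 9.85 to 18.5 FPKM.

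Every gamma gene in the table was detected, each in 1 to 6 cells. Pcdhga8 was the most frequent, in 6 cells, with 26.0 FPKM in cell 61 and 1.39 to 5.51 FPKM in the other 5. Pcdhga3 had 26.3 FPKM and Pcdhgb2 had 19.5 FPKM in cell 57, the highest cell of both, and neither passed 7.99 FPKM elsewhere. Of the 50 gamma detections 18 (36%) fell in cells 58 and 16, with 10 and 8 genes. Pcdhga2 in cell 19, at 6.96 FPKM, was the only clustered gene of that cell and rested on 2 fragments.

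The alpha genes analysed were the least seen, and they are only a part of the mouse alpha array. Pcdha4, Pcdha5, Pcdha6 and Pcdha11 were detected in 2 cells each and Pcdha12 in 0, with a top value of 22.1 FPKM for Pcdha4 in cell 7.

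The C-type genes, which stand at the ends of the alpha and gamma arrays and are known as the isoforms whose use is least left to chance, were detected in 1 to 4 cells each. Pcdhac2, the main clustered isoform of serotonergic neurons, was 3.27, 4.63, 8.69 and 12.3 FPKM in cells 16, 8, 9 and 13. Pcdhac1 was 7.43 FPKM in cell 3. Pcdhgc3 was 1.48, 2.98 and 14.4 FPKM in cells 47, 16 and 3. Pcdhgc5 was 1.54, 7.34, 9.17 and 9.28 FPKM in cells 9, 60, 47 and 58, and it was above 0 in 11 cells. At least 1 C-type gene was detected in 8 cells (13.6%, interval 6.04 to 25.0%), and by gene and cell combination their share was 5.08%, beside 4.85% for the 43 other clustered genes.

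Where they were detected, the median level of clustered genes was 4.63 FPKM (quartiles 2.48 and 10.8, 135 detections, median of 29 fragments), that of the non-clustered genes 7.37 FPKM (quartiles 2.62 and 18.2, 189 detections, 70 fragments) and that of all genes 14.1 FPKM. Over the exon length that no other protocadherin gene shares, the clustered median was 6.36 FPKM and the non-clustered one stayed at 7.37 FPKM. By array the medians were 6.35 FPKM for beta, 5.47 for alpha and 3.09 for gamma. The gap between beta and gamma depends on the exon length. Over the unshared length the same detections had medians of 6.35 FPKM for beta, 5.84 for gamma and 11.7 for alpha. In the alpha and clustered medians the 2 detections of Pcdha11, which has no known length, stayed at their given FPKM. How fragments in the common exons were counted is not given in the sources used here.

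**Figure D3:**
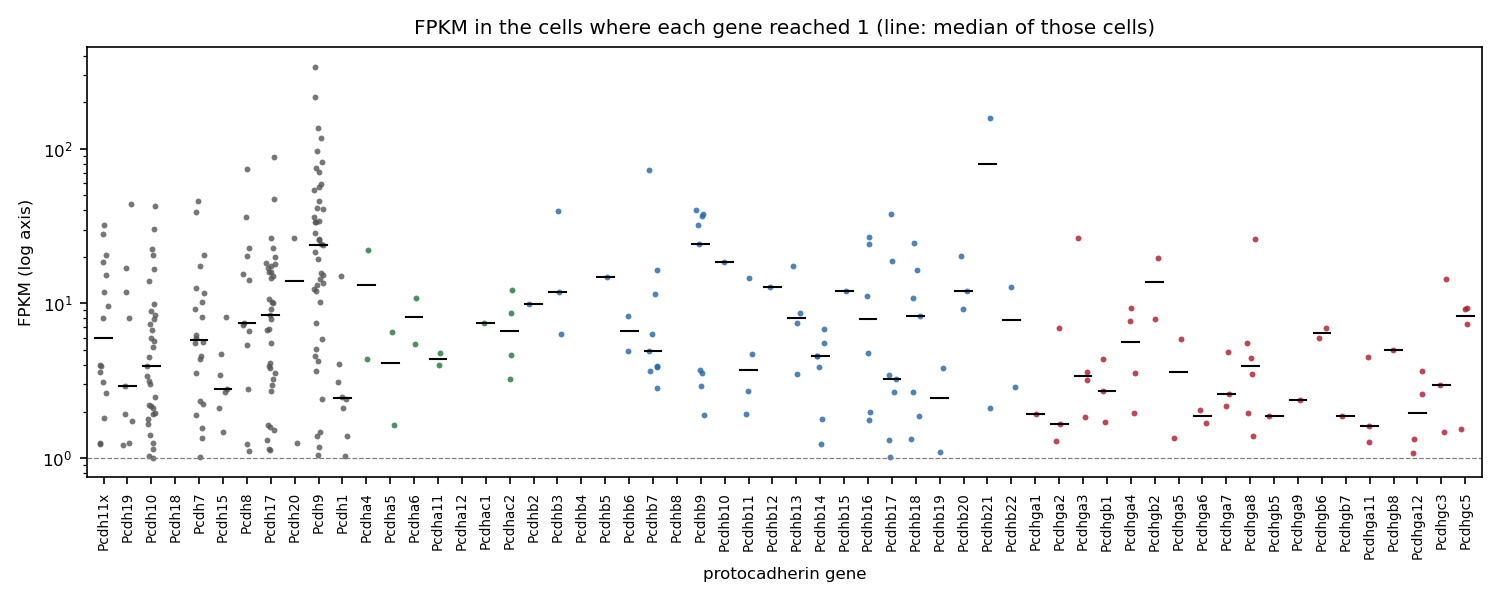
FPKM (log axis) of each protocadherin gene in the cells where it reached 1, the dashed line. Each point is a cell, the short bar is the median of those cells, and colours are grey for non-clustered, green for alpha, blue for beta and red for gamma. Pcdh9 has the most points and reaches 340 FPKM, Pcdhb21 has the highest clustered point at 158 FPKM, and most gamma points lie under 10 FPKM.

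Per cell, the number of clustered genes detected had a median of 1 (quartiles 0 and 3, range 0 to 14), and that of non-clustered genes a median of 3 (quartiles 2 and 5, range 0 to 9). The clustered median depends on the threshold, being 0 at 5 FPKM and 2 with any FPKM above 0. At least 1 clustered gene was detected in 38 cells (64.4%, interval 50.9 to 76.4%) and at least 1 non-clustered gene in 52 cells (88.1%, 77.1 to 95.1%). All 38 cells with a clustered gene also had a non-clustered gene. A further 14 cells had non-clustered genes only and 7 had neither. A single clustered gene was found in 12 cells, 2 to 4 in 15 cells and 5 or more in 11 cells.

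**Figure D4:**
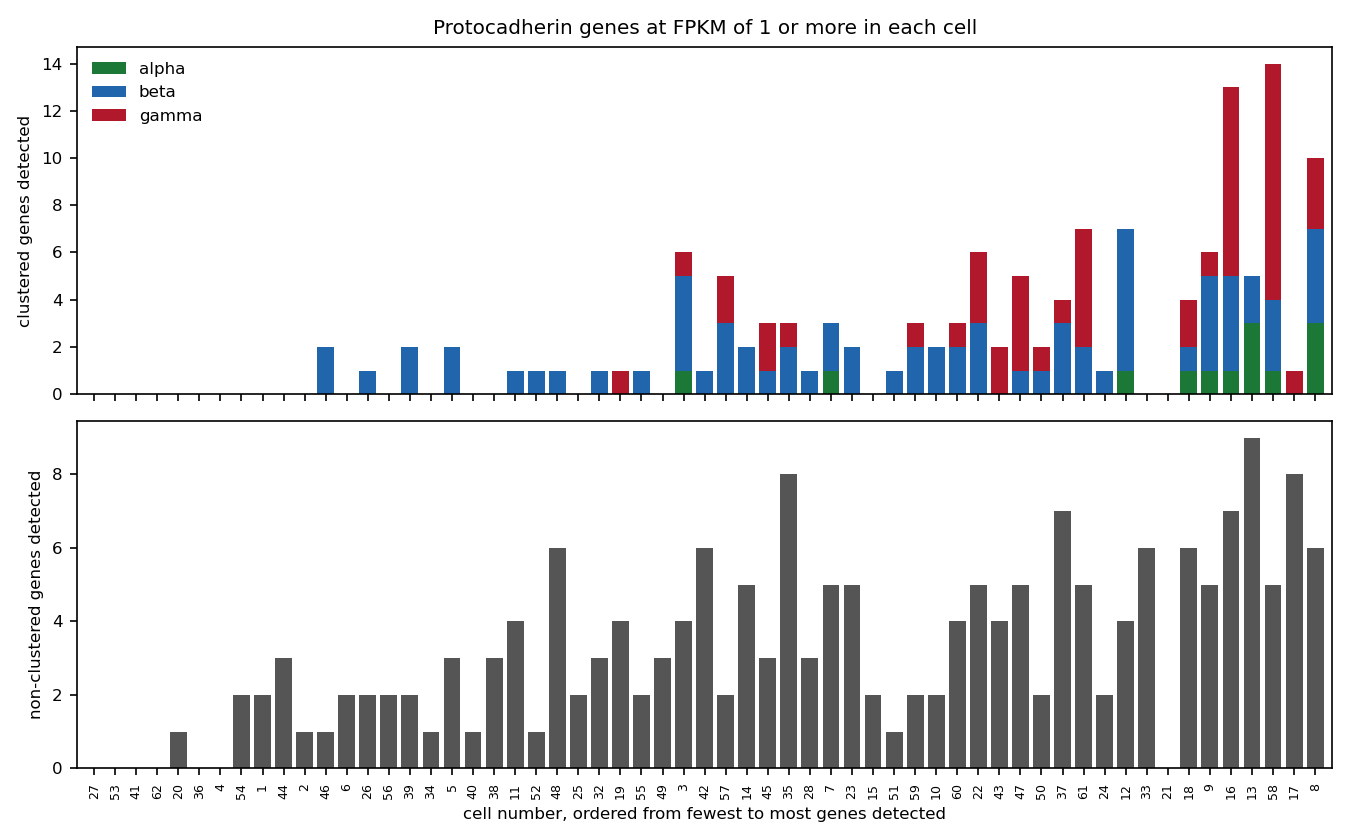
Number of protocadherin genes at an FPKM of 1 or more in each of the 59 cells, ordered from fewest to most genes detected. The upper bars stack alpha, beta and gamma genes and the lower bars give non-clustered genes. The clustered count reaches 14 in cell 58, 13 in cell 16 and 10 in cell 8, and cells 21 and 33 have 0 clustered genes among cells with many genes.

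The clustered genes detected mostly differed between cells. In the 38 cells with any, 35 combinations were found, and the only combination seen more than once was Pcdhb9 alone, in 4 cells. The 26 cells with at least 2 clustered genes had 26 combinations. Of the 703 pairs of these 38 cells 72.4% shared no clustered gene, while 9.35% of the 1326 pairs of the 52 cells with a non-clustered gene shared no non-clustered gene. Combinations of few detected genes out of many differ readily, and pairs of cells then readily share none. By gene and cell, 4.87% of clustered and 29.1% of non-clustered values were detections, and Pcdh9 alone was in 44 cells. The number of combinations and the shares of pairs describe these cells and were not set against an expectation. The non-clustered genes gave 36 combinations in 52 cells.

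In the 26 cells with at least 2 clustered genes, the highest gene held a median of 51.2% of the summed clustered FPKM, from 16.4% in cell 58 to 92.9% in cell 46, where it was Pcdhb7. In 8 of these cells exactly 2 genes were detected, so that a share of about 50% or more follows from the count. In the 18 cells with at least 3 the median was 38.7%, from 16.4 to 83.6%. The highest clustered gene was 1 of 23 different genes over the 38 cells, most often Pcdhb9, in 7 cells. The highest non-clustered gene was 1 of 8.

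The 3 cells with the most clustered genes had different makeups. Cell 58 had 14, of which 10 were gamma genes, led by Pcdhgc5 at 9.28 FPKM and Pcdhb13 at 8.70 FPKM. Cell 16 had 13, of which 8 were gamma genes, led by Pcdhb20 at 9.20 FPKM and Pcdhgb6 at 6.92 FPKM. Cell 8 had 10, led by Pcdhb9 at 24.2 FPKM and Pcdhb2 at 9.85 FPKM, and it also had the most genes detected of all cells. Together they held 37 of the 135 clustered detections (27.4%), and each had between 8076 and 10310 genes detected. Without them 62.5% of cells had a clustered gene and the median count stayed at 1.

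The counts moved with how many genes a library yielded. Across the 59 cells, the number of clustered genes against the number of all genes detected had a Pearson r of 0.68 and a Spearman rho of 0.70, and r was 0.68 again without the 2 cells farthest from the median of genes detected. For non-clustered genes r was 0.69 and rho 0.69, and r was 0.66 without those 2 cells. Against depth r was 0.35 and rho 0.27 for clustered genes, and r was 0.31 and rho 0.29 for non-clustered genes. Both numbers of a point come from the same library, so these are descriptions and their cause was not tested. In the 39 cells with at least 500000 fragments 69.2% had a clustered gene, and in the 20 cells below it 55% did.

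Of the 6 marker lists, the number of neuronal markers detected had the highest correlation with the protocadherin counts. Its rho was 0.57 with clustered genes (r 0.40) and 0.73 with non-clustered genes (r 0.68), and 0.53 and 0.70 without the 2 cells farthest from the median of the marker count. For astrocyte markers the rho was 0.38 and 0.50, for oligodendrocyte markers 0.22 and 0.18, for oligodendrocyte precursor markers 0.25 and 0.26, for microglia markers 0.17 and 0.15, and for endothelial and mural markers 0.20 and 0.17, over the same 59 cells. Marker counts come from the same libraries too, and the part of genes detected was not told apart. Cell 21 had 7219 genes and 2934694 fragments but 0 protocadherin genes at an FPKM of 1. Pcdh17 was at 0.717 FPKM in it and 3 gamma genes were above 0. It had 4 of 14 neuronal, 10 of 10 oligodendrocyte and 10 of 10 microglia markers. Cells with 6 neuronal markers varied: cells 4, 25 and 34 had 0 clustered genes, cell 19 had 1, cells 45 and 60 had 3 and cell 57 had 5. Cell 33, with 7126 genes and 14 of 14 neuronal markers, had 6 non-clustered and 0 clustered genes.

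The 14 measured regulators of clustered promoter choice had a median detection of 39.0%, and 13 of them reached 10% of cells and 3 reached 50%, where 54.4% and 11.7% of all genes were. The cohesin subunits Smc1a and Smc3, which hold the DNA loops that bring a promoter to its enhancer, were found in 38 and 36 cells, and the boundary factor Ctcf in 30. Wiz, a partner of histone methyltransferases, was found in 8 cells and Dnmt3b, a DNA methyltransferase that acts on clustered promoters in early development, in 2. The 14 processing and signalling partners had a median of 48.3%, and 6 were found in at least 50% of cells. The WAVE complex subunits Nckap1 and Cyfip2 were found in 44 cells each and the kinase Ptk2b in 35, while the receptor Ret was found in 3.

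Other cadherins were set beside the protocadherins. The 15 classical and type II cadherins had a median detection of 10.2% of cells, with Cdh2 (N-cadherin) in 26 cells, Cdh13 in 19 and Cdh1 (E-cadherin) in 0. The 10 large and atypical cadherins had a median of 17.8%, with Clstn1 (a calsyntenin) in 40 cells and Fat4 in 0. The 6 catenins, cytoplasmic partners of classical cadherins, had a median of 49.2%, and 19 other neuronal recognition genes had 28.8%, with Ncam1 in 48 cells and Sdk1 and Sdk2 in 3 each. The median of the non-clustered protocadherins, 22.0%, lay between those of the large cadherins and the other recognition genes.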

How the data were processed

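Per the labels' protocols, single cells were collected by patch pipette in the living brain and sequenced on an Illumina HiSeq. The authors deposited 1 table of FPKM values for the 59 cells, and the submitters' processing notes name STAR 2.5.3a, featureCounts 1.5.3 and GRCm38. Not given in the sources used here were the annotation release, strandedness and the treatment of fragments that fit several genes. This bears on the alpha and gamma genes, which share exons, and on similar genes of an array, whose values are uncertain for that reason.

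The 51 ERCC spike-in rows were left out of 20740 features. Exon lengths and coordinates were those of GENCODE M21 on GRCm38, matched for 19366 genes (93.6%). FPKM times exon length is a multiple of what 1 fragment is worth in a cell, which gave depth and fragments. The median cell had 73.3% of its values of at most 20 fragments whole to within 0.02 fragments, which is too few for a count model, so the FPKM themselves were used. Of 433 protocadherin values above 0 with a length, 379 (87.5%) came out whole. The lengths of Pcdh17, Pcdha4, Pcdha12 and Pcdhga8 did not give whole numbers, Pcdha11 had no length, and fragments of the first 4 are approximate. The depth step was tested on simulated data.

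The 58 genes and the other gene lists were chosen with earlier results of these data known. All protocadherin genes may be named, and of each other list at most the 4 genes detected in the most cells and the 2 in the fewest. Python 3.11.15, numpy 2.4.6, pandas 2.3.3 and scipy 1.17.1 were used. Alternatives were detection at any FPKM above 0 or at 5, at least 2 or 10 fragments, rescaling to 1000000 with or without mitochondrial genes, cells with at least 2000 genes or 500000 fragments, thinning to 300000 fragments, and no pseudogene. Level means were also taken with pseudocounts of 0.1 and 10 in place of 1.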

Additional observations from a re-analysis of the deposited data

How the results depend on the processing

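The 9 summaries of protocadherin detection were recomputed under 12 alternatives, of which 2 were chosen after seeing the data: leaving out the 3 cells with 10 or more clustered genes, and FPKM over unshared exon length. This gave 108 values. Only the within-cell difference and the rho of clustered genes with genes detected could change sign, and neither did. A value was held to have moved when it left the spread over cells or genes (1 SD), or the interval of a share, when a count changed by over 1.5 times, or when a rho changed by over 0.1. By these yardsticks 7 moved. With detection at 5 FPKM, 45.8% of cells had a clustered gene, and the rho of clustered genes with genes detected was 0.58. In the 46 cells with at least 2000 genes the shares with a clustered and a non-clustered gene were 80.4% and 97.8%, and the rho was 0.55. Thinned to 300000 fragments and detected at 1 fragment, in the 45 cells deep enough, the shares were 77.8% and 95.6%. The spread over cells and genes is wide, so other values also changed by over 1.5 times without leaving it. The clustered median per cell, reported as 1, was 0 at 5 FPKM and 2 with any FPKM above 0, with 2 fragments, with at least 2000 genes and thinned. The median detection of clustered genes, reported as 3.39%, was 1.69% at 5 FPKM and 5.13% in cells with at least 500000 fragments, and that of non-clustered genes, reported as 22.0%, was 13.6% at 5 FPKM. The within-cell difference, reported as -20.9 points, was -32.1 with any FPKM above 0 and thinned. It was -13.9 at 5 FPKM and -18.2 with 10 fragments. Combinations ran from 26 to 41. The mean log2 level (median over cells) of the non-clustered genes was 0.98 with a pseudocount of 1, -1.44 with 0.1 and 3.61 with 10, and that of beta genes 0.09, -3.02 and 3.34. For alpha and gamma genes it was 0, -3.32 and 3.32, the level of an undetected gene.

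The number of cells limits single genes: for a gene detected in 0 of 59 cells the interval reaches 6.06%. Depth limits the threshold, since in 9 cells a single fragment of a protocadherin gene of median length (5041 bases) already gives an FPKM of 1 or more. No paired analysis was possible because the labels give no second group with replicate numbers to match. The within-cell comparison of gene classes is a description.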
